A study of Homo sapiens with 12 samples.

Results

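This report covers 10 genes for subunits of integrins in HT29 cells treated with a water extract of *Aconitum carmichaeli* Debeaux (ACD). They were listed by name, and they are 10 of the 26 human integrin genes in a count table of 60675 gene IDs. They are *ITGA1*, *ITGA2*, *ITGA3*, *ITGA5*, *ITGA6* and *ITGAV* for α subunits, and *ITGB1*, *ITGB4*, *ITGB5* and *ITGB6* for β subunits. The list was selected on measured values: it was built around *ITGA1*, chosen by its lower CPM at the high dose than in vehicle, and the others were listed as its partners or as other integrins of epithelium. The values of *ITGA1* against vehicle are therefore a description with no test. The question was whether its partners moved with it.

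HT29 is an established line from a human colorectal adenocarcinoma. The cells received vehicle or ACD for 24 h. ACD was given at a low dose of 20 µg/mL, a medium dose of 100 µg/mL or a high dose of 500 µg/mL. The vehicle held 2% DMSO by the labels. By the paper, it was PBS with 2% DMSO, and the extract was dissolved in the same solution. The 2% is that of the solution, not of the culture medium. Each of the 4 groups had 3 RNA-seq libraries, 12 in all. The labels do not say that the libraries of a group came from separate cultures, so p-values measure the spread between these libraries, which may be technical. All libraries came from 1 cell line in monolayer culture.

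Integrins are heterodimers of 1 α and 1 β subunit that span the plasma membrane and tie the extracellular matrix to the actin or keratin cytoskeleton. A subunit reaches the cell surface only after it has paired in the endoplasmic reticulum, and β1 is the partner of most α subunits. In the intestinal epithelium, integrins hold the cells on the basement membrane. The subunits fall into collagen receptors (α1β1 and α2β1), laminin receptors (α3β1, α6β1 and α6β4) and receptors for the Arg-Gly-Asp (RGD) motif of fibronectin, vitronectin and latent TGF-β (α5β1, αvβ1, αvβ5 and αvβ6). The α1 subunit has no known partner other than β1.

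Each library held 15941255 to 33866644 expected counts (median 23833237). High-dose replicate 2 stood apart from the rest. The SD of its log2 differences from the mean of the other libraries of its group was 0.502 over 10626 genes. Each of the other 11 libraries, set against its own group in the same way, gave 0.102 to 0.293. The highest of these, 0.293 and 0.25, were high-dose replicates 1 and 3, whose reference held replicate 2. The median difference of replicate 2 was 0.41 in the quartile of genes with the shortest transcripts. In the quartile with the longest it was -0.35. Calls and counts that change without replicate 2 are therefore also given without it. Of the markers fixed for intestinal epithelium, 10 of 10 were expressed, with summed levels of 11400 to 13600 CPM (read counts scaled to library size) over all groups. Markers of fibroblasts summed to at most 2.9 CPM, those of endothelium to at most 2.57 CPM and those of astrocytes to at most 0.385 CPM.

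*ITGA1* lies on chromosome 5 at 52787916-52959209, plus strand (GRCh38, GENCODE 44), and its canonical transcript has 29 exons. Its first exon, 52787916-52788414, is also the first exon of the canonical transcript of *PELO*, a gene for a ribosome rescue factor. The other *PELO* exons lie in intron 1 of *ITGA1* on the same strand. *ITGA2*, for the other collagen-binding α subunit, starts 30131 bases beyond the end of *ITGA1*. RefSeq gives *ITGA1* and *PELO* the same start, so their 250 bases upstream are 1 and the same stretch of the genome. This window and that of *ITGA2* are shown because the 3 neighbouring genes had different values below. Both are from RefSeq on GRCh38.p14, plus strand, with matches to GGGCGG, the core of the GC box, in capitals. The first is chr5:52787666-52787915 and the second chr5:52989102-52989351.
ITGA1 and PELO: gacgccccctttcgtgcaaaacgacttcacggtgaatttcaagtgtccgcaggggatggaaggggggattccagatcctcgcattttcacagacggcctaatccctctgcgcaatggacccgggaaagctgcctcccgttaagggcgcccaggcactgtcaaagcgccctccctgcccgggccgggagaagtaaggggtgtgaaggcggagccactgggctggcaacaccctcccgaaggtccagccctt
ITGA2: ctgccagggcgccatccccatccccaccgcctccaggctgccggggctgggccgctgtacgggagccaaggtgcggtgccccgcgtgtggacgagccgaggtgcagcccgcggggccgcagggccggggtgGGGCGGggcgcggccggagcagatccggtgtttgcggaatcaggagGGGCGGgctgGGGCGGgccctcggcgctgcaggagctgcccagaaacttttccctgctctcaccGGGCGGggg

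Letters were searched on both strands, and matches of different motifs were allowed to overlap. The shared window of *ITGA1* and *PELO* held no match to GGGCGG and the *ITGA2* window held 4. Over all 34788 distinct windows of 250 bases, 42.6% held this motif. Neither window held TATAAA (10.8% of all windows), TGANTCA (6.59%) or CACGTG (6.31%). The *ITGA2* window held 1 match to GCGTG and the shared window none (32.2% of all windows). GC content was 62% in the shared window and 76.4% in that of *ITGA2*, and its median over all windows was 58%. Windows were held for 8 of the 10 subunit genes, all but *ITGA3* and *ITGB4*.

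*ITGA1*, for the α1 subunit of the collagen receptor α1β1, was at 63.5, 78.2 and 79.8 CPM in the vehicle libraries. In RNA from whole cultures, fewer cells with a transcript and less of it per cell cannot be told apart. The low-dose libraries held 86.2, 87.2 and 83 CPM, the medium-dose libraries 68.8, 70.6 and 66.9 CPM and the high-dose libraries 48.7, 39.3 and 49.8 CPM. The high-dose libraries lay below every other library, and the low-dose libraries lay above every other library. The mean was 73.8 ± 8.98 CPM (SD, n = 3) in vehicle. From the low to the high dose the means were 85.4 ± 2.18, 68.8 ± 1.83 and 45.9 ± 5.76 CPM. The log2 fold change from vehicle was 0.21 (low), -0.10 (medium) and -0.68 (high), the last of which is 1.61-fold lower. Without high-dose replicate 2, it was -0.59 at the high dose. The medium and low doses differed by -0.31 on the log2 scale (SE 0.1). The gene was chosen with its levels in all 4 groups known, so this too is a description with no test.

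**Figure D1:**
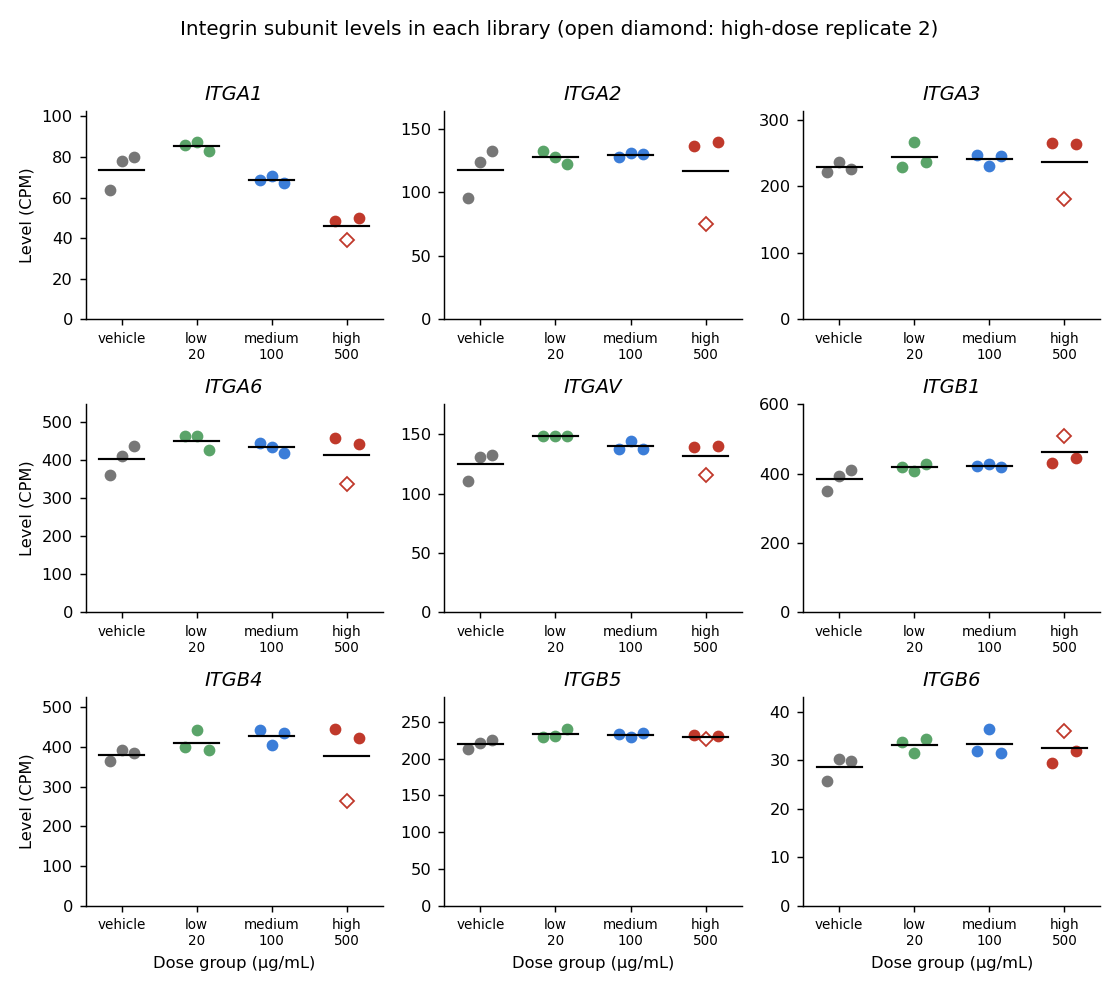
Level (CPM, vertical axis from 0) of the 9 detected subunits in each library, by dose group in µg/mL. Points are libraries, bars are group means, and the open diamond is high-dose replicate 2. For *ITGA1*, all high-dose points lie between 39.3 and 49.8 CPM, below the vehicle points, while *ITGB5* stays between 212 and 240.3 CPM over all libraries.

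No other listed subunit passed the test as lower at the high dose. *ITGB8*, an integrin subunit outside the list, did, as given below. Past the test means a Benjamini–Hochberg adjusted p under 0.05 over the 15374 genes tested by edgeR. Of the 9 other subunits, 8 had enough counts to be tested, and 0 of the 8 passed at the high dose, where 5.77% of all genes did. One of the 8 had an unadjusted p under 0.05 (20.1% of all genes did), and DESeq2 on all libraries called 1 (8.46% of all genes). This was *ITGB1* in both cases, with a positive log2 fold change. The log2 fold changes of the 8 ranged from -0.01 to 0.26 with a median of 0.06, beside 0.01 for all genes. The lowest limit of their 95% intervals was -0.42, so a 1.5-fold decrease (-0.58) lay outside the interval of every one of the 8. At the medium dose, 0 of 8 passed (1.01% of all genes did, 0 with DESeq2), with 1 of 8 at an unadjusted p under 0.05 (11.7% of all genes). At the low dose, 0 of 8 passed as well (0.124% of all genes did, 0 with DESeq2), with 2 of 8 at an unadjusted p under 0.05 (7.95% of all genes).

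The order of the doses gave no call either. In the trend over dose rank, 0 of 8 passed edgeR's test (5.74% of all genes did), with 1 at an unadjusted p under 0.05 (20.1% of all genes). That one was *ITGB1*, at 0.08 log2 per dose step (SE 0.03, adjusted p = 0.0831). Between doses, 0 of the 8 passed edgeR's test for high against medium (0.891% of all genes did), high against low (2.98%) or medium against low (0.143%), and none had an unadjusted p under 0.05 there. DESeq2 on all libraries also called 0 of 8 between doses. These intervals bound how far the other subunits could have been lower and do not show that their levels were equal.

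**Figure D2:**
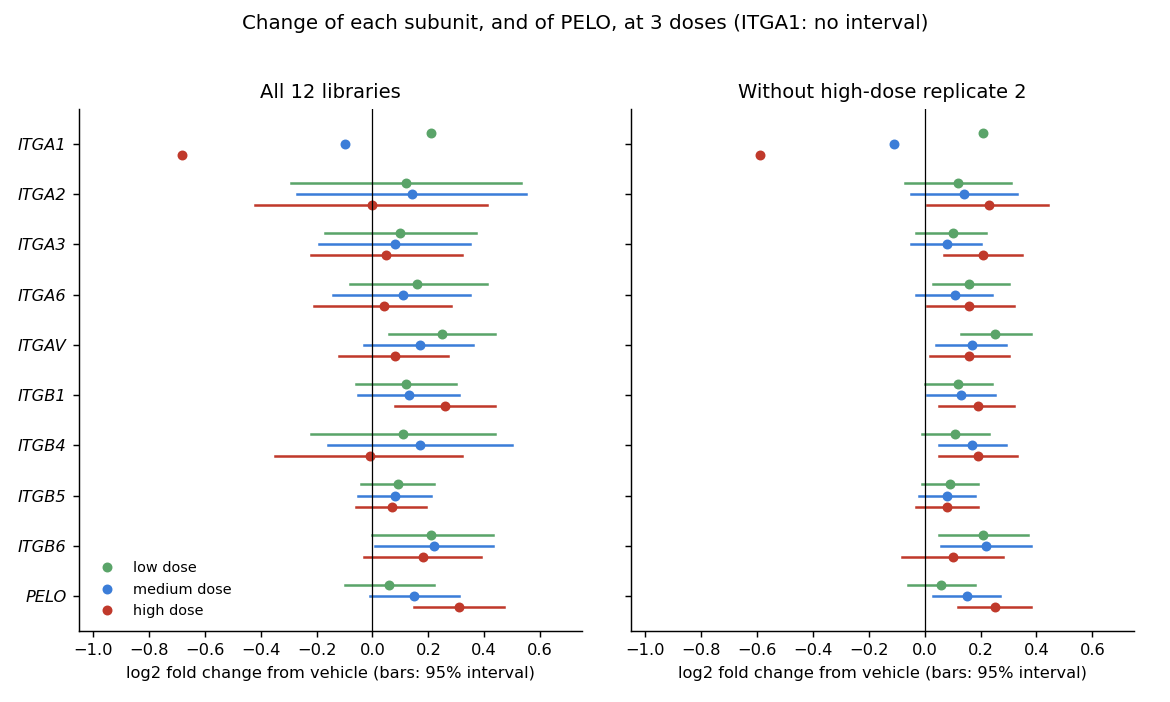
Log2 fold change from vehicle for 9 subunits and *PELO* at 3 doses, with all 12 libraries (left) and without high-dose replicate 2 (right). Bars are 95% intervals, and *ITGA1* has none because it was chosen for this contrast. At the high dose the *ITGA1* point lies at -0.68 (left) and -0.59 (right), below the intervals of the other 8 subunits in both panels. This position is a description only, since *ITGA1* was chosen for its lower level and its own spread is not drawn.

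*ITGB1*, for the β1 subunit that α1 needs as its partner, lies on chromosome 10 at 32887273-33005792, minus strand. It was at 351, 393 and 411 CPM in vehicle and at 431, 509 and 446 CPM at the high dose. The low-dose libraries held 418, 409 and 429 CPM and the medium-dose libraries 421, 427 and 418 CPM. The high-dose libraries lay above every vehicle library. The log2 fold change at the high dose was 0.26 (SE 0.08, 95% interval 0.08 to 0.44, adjusted p = 0.0924 by edgeR), which did not pass the test. It passed with DESeq2 on all libraries (0.27, adjusted p = 0.0185) and in edgeR without high-dose replicate 2 (0.19, adjusted p = 0.0472). A processed pseudogene, *ITGB1P1* on chromosome 19, can take part of its reads. *ITGB1P1* held 3.85% as many counts as *ITGB1* over all libraries, and its log2 fold change was 0.31 (SE 0.18, adjusted p = 0.388).

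The ratio of *ITGA1* to *ITGB1* in CPM therefore differed by more than either gene. On the log2 scale it was -2.47, -2.33 and -2.37 in vehicle, -2.28, -2.23 and -2.37 in the low-dose, -2.61, -2.6 and -2.64 in the medium-dose and -3.15, -3.7 and -3.17 in the high-dose libraries. The medium-dose libraries lay below the vehicle libraries and the high-dose libraries lay lower again, with no overlap. The mean at the high dose was 0.95 below that of vehicle, leaving 51.8% of the vehicle ratio. Without replicate 2 it was 0.77 below. *ITGA1* was chosen for its lower level at the high dose, so the separation of this ratio is a description with no test. In the 7 other α to β pairs, which were not chosen in this way, the high-dose and vehicle ranges overlapped. No share over pairs of other genes is given beside this count. The mean log2 ratio at the high dose minus vehicle was -0.31 for *ITGA2* to *ITGB1*, -0.23 for *ITGA3* to *ITGB1*, -0.24 for *ITGA6* to *ITGB1* and -0.19 for *ITGAV* to *ITGB1*. Without replicate 2, these differences were 0.05, 0.02, -0.02 and -0.03.

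**Figure D3:**
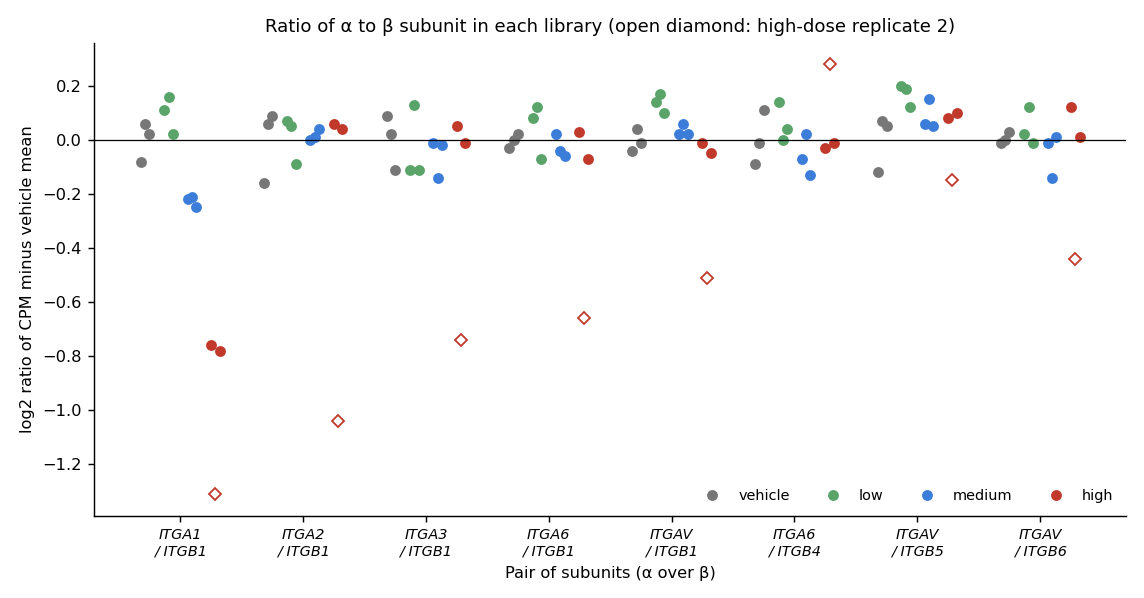
Log2 ratio of the CPM of an α subunit to a β subunit that can pair with it, minus the mean of the vehicle libraries (vertical axis), for 8 pairs. Each point is a library, coloured by group, and the open diamond is high-dose replicate 2. For *ITGA1* to *ITGB1* all 3 high-dose points lie below every other point, a description only, since *ITGA1* was chosen for its lower level. In the other pairs with *ITGB1* it is only replicate 2 that lies far below 0.

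*ITGA2*, for the α2 subunit of the other collagen receptor, lies on chromosome 5 at 52989340-53094779. It was at 95.4, 124 and 133 CPM in vehicle. The low-dose libraries held 133, 128 and 122 CPM, the medium-dose libraries 128, 131 and 131 CPM and the high-dose libraries 136, 75 and 139 CPM. Replicates 1 and 3 of the high dose lay above every vehicle library and replicate 2 below every vehicle library. The log2 fold change at the high dose was 0 to 2 decimals (95% interval -0.42 to 0.41, adjusted p = 0.996 by edgeR). Without high-dose replicate 2 it was 0.23 (95% interval 0.01 to 0.44, adjusted p = 0.128). The interval of this gene was the widest of the 8 on the low side.

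The laminin receptors came next. *ITGA3*, for α3, was at 222, 237 and 226 CPM in vehicle and at 265, 181 and 264 CPM at the high dose. Its high-dose libraries lay on both sides of the vehicle libraries, and its log2 fold change was 0.05 (SE 0.12, adjusted p = 0.874). *ITGA6*, for α6, which pairs with β1 or β4, was at 359.6, 410.2 and 436 CPM in vehicle and at 459, 336 and 442 CPM at the high dose, with a log2 fold change of 0.04 (SE 0.11, adjusted p = 0.908). *ITGB4*, for the β4 subunit of hemidesmosomes, which pairs with α6 only, was at 365, 394 and 385 CPM in vehicle and at 446, 263 and 424 CPM at the high dose. Its log2 fold change was -0.01 (SE 0.15, adjusted p = 0.981). In all 3 genes high-dose replicate 2 was the lowest of the 12 libraries. Without it, *ITGA3* (0.21, adjusted p = 0.0307) and *ITGB4* (0.19, adjusted p = 0.0484) passed edgeR's test as higher, and *ITGA6* did not (0.16, adjusted p = 0.119). With *ITGB1*, 3 of 8 then passed, where 18.7% of all genes did.

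High-dose replicate 2 lay lower in the subunits with longer transcripts, though not in order of length among these. Against the mean of the other high-dose libraries, its log2 difference was 0.22 in *ITGB1* and 0.23 in *ITGB6*, whose canonical transcripts have 3735 and 4641 bases. It was -0.03 in *ITGB5* (4440 bases). In the 6 subunits with longer transcripts it was below 0, from -0.88 in *ITGA2* (7843 bases) to -0.27 in *ITGAV* (7039 bases), with -0.32 in *ITGA1* (10736 bases). With an offset for transcript length in each library, 0 of 8 other subunits passed at the high dose and the log2 fold change of *ITGA1* was -0.61. Vehicle replicate 1 held the lowest vehicle value in 9 of 9 detected subunits. Without it, the log2 fold changes of the 8 at the high dose ranged from -0.13 to 0.2, and 0 of 8 passed.

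Among the RGD receptors, *ITGAV*, for αv, was at 111, 131 and 132 CPM in vehicle. The low-dose libraries held 149, 148 and 148 CPM, the medium-dose libraries 138, 144 and 137 CPM and the high-dose libraries 139, 115 and 139.6 CPM. Every low-dose and every medium-dose library lay above every vehicle library, while the high-dose libraries overlapped with vehicle. Its log2 fold change by edgeR was 0.25 (SE 0.09, adjusted p = 0.465) for the low, 0.17 (adjusted p = 0.512) for the medium and 0.08 (adjusted p = 0.702) for the high dose. The low-dose value passed when high-dose replicate 2 was left out (0.25, adjusted p = 0.0376), where 2.03% of all genes passed.

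*ITGB5*, for β5, was at 212, 221 and 225 CPM in vehicle and at 232, 227 and 230.2 CPM at the high dose. Its log2 fold change was 0.07 at the high dose (SE 0.06, 95% interval -0.06 to 0.19, adjusted p = 0.594), the narrowest interval of the subunits. *ITGB6*, for β6, an epithelial subunit that binds latent TGF-β together with αv, was at 25.6, 30.2 and 29.8 CPM in vehicle and at 29.4, 36 and 32 CPM at the high dose. Its log2 fold change was 0.21 (adjusted p = 0.623), 0.22 (adjusted p = 0.41) and 0.18 (SE 0.1, adjusted p = 0.347) from the low to the high dose. The ranges of the log2 ratios of *ITGAV* to *ITGB5* and to *ITGB6* overlapped between the high dose and vehicle.

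*ITGA5*, for the fibronectin receptor subunit α5, was not detected in this line. It had 0 counts in 11 libraries and 1 count in high-dose replicate 1. A count of 0 allows a level of up to 3 counts, or 0.0886 to 0.188 CPM depending on the library, for counting error only. Its partner *ITGB1* was among the most abundant subunits.

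Libraries that did not overlap with vehicle were counted too. At the high dose, 2 of the 8 other subunits (*ITGB1* and *ITGB5*) had every library above every vehicle library, where 10.5% of all genes did. At the medium dose it was 5 of 8 (*ITGAV*, *ITGB1*, *ITGB4*, *ITGB5* and *ITGB6*), with 14.5% of all genes, and at the low dose 3 of 8 (*ITGAV*, *ITGB5* and *ITGB6*), with 11.4% of all genes. Of the 8 listed subunits other than *ITGA1*, 0 had every library of a dose below every vehicle library. The share of all genes that did so is not given here, so this count is a description only. *ITGB8*, outside the list, lay wholly below vehicle (at least 34.1 CPM) at the medium dose (at most 33.2 CPM) and the high dose (at most 28.4 CPM).

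Levels of different subunits were compared as CPM per kb of canonical transcript. In vehicle the order was *ITGB1* (103 ± 8.29, SD, n = 3), *ITGA6* (69.1 ± 6.69), *ITGB4* (64.6 ± 2.53), *ITGB5* (49.4 ± 1.41), *ITGA3* (46.7 ± 1.6), *ITGAV* (17.7 ± 1.73), *ITGA2* (15 ± 2.5), *ITGA1* (6.88 ± 0.836) and *ITGB6* (6.15 ± 0.546). The ranges of neighbours overlapped between *ITGA6* and *ITGB4*, *ITGB5* and *ITGA3*, *ITGAV* and *ITGA2*, and *ITGA1* and *ITGB6*. Such ranges set aside that both genes were measured in the same libraries. Overlap therefore does not show equal levels, and the order within these 4 pairs was not tested. The other neighbours did not overlap. At the high dose *ITGA1* was at 4.28 ± 0.536 CPM per kb, the lowest of the 9, while *ITGB6* was at 7 ± 0.724.

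The last exon holds 6803 of the 10736 bases of the canonical transcript of *ITGA1*, and the use of shorter transcripts was not tested. By CPM per kb, *ITGA1* was a small part of the RNA for the α subunits that can pair with β1. Of the summed CPM per kb of *ITGA1*, *ITGA2*, *ITGA3*, *ITGA6* and *ITGAV*, it made up 4.42% ± 0.191 in vehicle and, from the low to the high dose, 4.61% ± 0.0783, 3.85% ± 0.113 and 2.74% ± 0.179 (SD, n = 3). The high-dose libraries held 2.6%, 2.94% and 2.69%, so here replicate 2 was not the lowest. *ITGA6* held 44.4% ± 1.01 of this sum in vehicle and 45.2% ± 1.15 at the high dose. *ITGA3* held 30.2% ± 2.03 and 30.7% ± 0.836.

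*PELO*, which shares its start and first exon with *ITGA1*, went the other way. It was at 44.8, 44.1 and 45.8 CPM in vehicle. The low-dose libraries held 45.5, 45 and 49.8 CPM, the medium-dose libraries 48.8, 50.04 and 50.4 CPM and the high-dose libraries 51.1, 60.3 and 55.4 CPM. The high-dose libraries lay above all the others. *PELO* rose by a log2 fold change of 0.31 at the high dose (SE 0.07, 95% interval 0.15 to 0.47, adjusted p = 0.0305 by edgeR), and by 0.1 per step in the dose trend (adjusted p = 0.0173). The high-dose call was lost in 10 of 21 alternatives, with the adjusted p between 0.00168 and 0.246. It stood without high-dose replicate 2 (0.25, adjusted p = 0.0116) and was lost without each vehicle replicate (adjusted p of 0.0693 to 0.121), without replicate 3 of the high dose (0.0792) and without replicate 1 (0.0521) or 3 (0.0522) of the medium dose.

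The log2 ratio of *ITGA1* to *PELO* was 0.5, 0.83 and 0.8 in vehicle and -0.07, -0.62 and -0.16 at the high dose, with no overlap. This too is a description, since *ITGA1* was chosen for its lower level. The shared exon of 499 bases makes up 4.65% of the canonical transcript of *ITGA1* and 11.4% of that of *PELO*, which has 4371 bases. Reads that lie within this exon alone cannot be told apart between both genes, and RSEM divided them by its model.

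**Figure D4:**
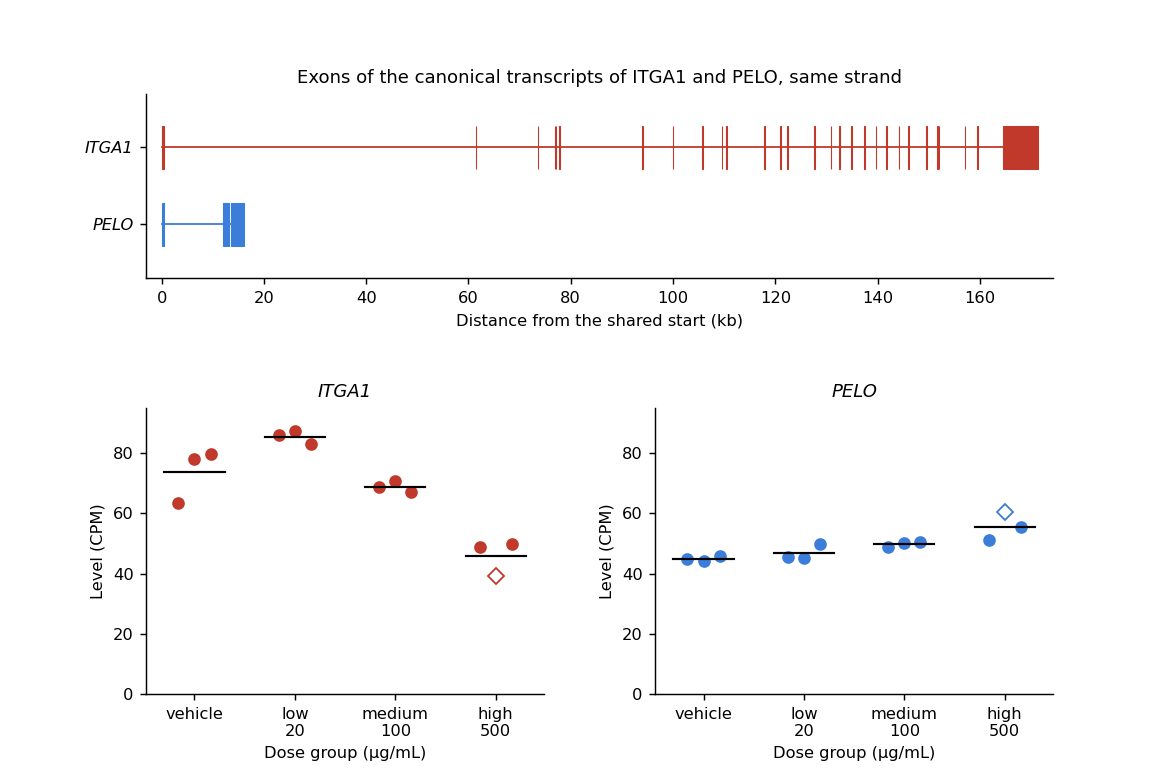
Top, exons (boxes) of the canonical transcripts of *ITGA1* and *PELO*, with the distance from their shared start in kb. Bottom, level in CPM in each library by dose group, with group means as bars and high-dose replicate 2 as an open diamond. The high-dose libraries are the lowest for *ITGA1* (39.3 to 49.8 CPM) and the highest for *PELO* (51.1 to 60.3 CPM).

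Other genes that overlap a subunit gene held few counts. *GALK1*, on the opposite strand at the end of *ITGB4*, had 2071 counts over all libraries and *PDK1-AS1*, opposite to *ITGA6*, had 601. Neither overlaps an exon of the canonical transcript of its subunit gene. An unnamed transcript within *ITGB5* (ENSG00000280042) had 104, and the antisense transcripts of *ITGA1* and *ITGA2* at most 27 each. The libraries were made with a kit that keeps the strand, and the strand setting of the counting is not given in the sources used here.

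The 5 genes whose pattern was most like that of *ITGA1* were not integrins. Pearson's r was taken with *ITGA1* in log2 CPM over the 12 libraries, for 10625 genes with a mean of at least 5 CPM, as a description. The highest values were those of *CFTR*, the chloride channel of the intestinal epithelium (0.98), *MYO6*, an actin motor (0.98), *PLD1*, a phospholipase (0.98), *PIK3AP1* (0.97) and *TRIM2*, a ubiquitin ligase (0.97). Without high-dose replicate 2 these were 0.98, 0.97, 0.96, 0.96 and 0.96. *CFTR* had means of 158 CPM in vehicle and of 170.4, 146 and 116 CPM from the low to the high dose. The other listed subunits that were detected had an r from -0.57 (*ITGB1*) to 0.53 (*ITGAV*), and *PELO* had -0.83. No r is given for integrins outside the list. Among these is *ITGB8*, which was also lower at the high dose (log2 fold change -0.58). The range of the listed subunits without high-dose replicate 2 was from -0.45 (*ITGA3*) to 0.31 (*ITGB6*), and *PELO* had -0.7. The r of *ITGA2* (0.51 and -0.11 without it), *ITGA3* (0.32 and -0.45), *ITGB4* (0.48 and -0.32) and *ITGB6* (-0.06 and 0.31) turned its sign. The libraries share their depth and the length bias given above, which enter every one of these values.

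Of the 16 integrin genes outside the list, 5 could be tested and 3 passed at the high dose, where 5.77% of all genes did. The lists were fixed with earlier results of these data known, so this count is a description. *ITGB8*, for β8, which pairs with αv and binds latent TGF-β, was at 34.1, 40.4 and 41 CPM in vehicle and at 26.9, 21.7 and 28.4 CPM at the high dose, with no overlap. *ITGB8* fell by 0.58 on the log2 scale (SE 0.11, adjusted p = 0.0109 by edgeR) and over the dose trend (adjusted p = 0.0056). Its high-dose call was lost without vehicle replicate 2 (adjusted p = 0.0599) or 3 (0.0526) and in edgeR on vehicle and the high dose alone (0.122). *ITGB7*, for β7, which leukocytes pair with α4 or αE, was at 4.02, 4.79 and 4.39 CPM in vehicle and at 8.02, 9.41 and 8.46 CPM at the high dose. It rose by 0.95 (SE 0.11, adjusted p = 0.000348), and also at the medium dose (0.71, adjusted p = 0.00944), and its high-dose call held in 21 of 21 alternatives. *ITGAM*, for αM of myeloid cells, rose from 1.39 ± 0.346 to 2.29 ± 0.315 CPM (0.77, adjusted p = 0.0473), and this call was lost in 14 of 21 alternatives. These 3 calls stood without high-dose replicate 2.

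Of the usual partners of these leukocyte subunits, *ITGA4* and *ITGB2* were near 0 and *ITGAE* was not. *ITGA4* had a mean of 0.0214 CPM and *ITGB2*, the partner of αM, 0.00932 CPM. *ITGAE*, for αE, had 11.2 CPM and a log2 fold change of -0.03 (adjusted p = 0.967), and of -0.45 without high-dose replicate 2 (adjusted p = 0.0135). The leukocyte markers summed to 10.6 to 11.3 CPM in vehicle and to 12.8 to 15.1 CPM at the high dose. The one of these that passed was *CD68*, for a lysosomal protein that other cells also make (0.57, adjusted p = 0.0151). *PTPRC*, which defines leukocytes, was at or near 0 in all libraries, at most 0.123 CPM. The 11 untested integrin genes were each below 1 CPM in every library.

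The ligands and intracellular partners of integrins were taken from 7 further lists. With the other integrins, the 8 lists held 105 genes, of which 74 were tested, and 5 rose and 3 fell at the high dose. That is 10.8% of those tested, beside the 5.77% of all genes given above. The lists were fixed with earlier results of these data known, so the share is a description. At the medium dose 2 rose (*ITGB7* and *THBS1*) and none fell, where 1.01% of all genes passed. At the low dose 0 passed edgeR's test (0.124% of all genes did). There 6 had an unadjusted p under 0.05 (7.95% of all genes did), and DESeq2 on all libraries called *ITGB7* and *LAMB2*.

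Of the 12 collagen genes, ligands of α1β1 and α2β1, 2 could be tested, and 0 passed at any dose with edgeR or DESeq2 or had an unadjusted p under 0.05. *COL4A2* of basement membranes had a log2 fold change of -0.07 (SE 0.1, adjusted p = 0.782). Of the 11 laminin genes, 8 were tested and 0 passed edgeR's or DESeq2's test at the high dose. There 3 had an unadjusted p under 0.05, where 20.1% of all genes did. Their median log2 fold change was 0.22 beside 0.01 for all genes. Without high-dose replicate 2, 6 laminin genes passed as higher and none as lower, from *LAMB3* (0.23, adjusted p = 0.00851) to *LAMC1* (0.57, adjusted p = 0.000294). In that fit 9.83% of all genes passed as higher. The part of the transcript length bias in this difference was not tested.

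Of the 13 RGD ligands and related matrix proteins, 10 were tested, and 2 rose and 2 fell at the high dose. Over all genes, 5.77% passed in either direction, and the count is a description for the reason given above. *THBS1*, for the matrix protein thrombospondin-1, was at 21, 21.4 and 25.2 CPM in vehicle and at 39.9, 30.4 and 36.3 CPM at the high dose. It rose by 0.66 (SE 0.1, adjusted p = 0.0024 by edgeR) and by 0.63 at the medium dose (adjusted p = 0.0106), and its high-dose call was lost in edgeR on vehicle and the high dose alone (adjusted p = 0.0828). *CCN2*, for connective tissue growth factor, fell by 0.66 (SE 0.14, adjusted p = 0.013) from 3.47 ± 0.272 to 2.21 ± 0.243 CPM. Its call was lost without vehicle replicate 2 (adjusted p = 0.0614) or 3 (0.0593) or high-dose replicate 1 (0.0604), and on vehicle and the high dose alone (0.107 with DESeq2 and 0.13 with edgeR). *TNC*, for tenascin-C, rose (0.8, adjusted p = 0.0498) and *TGFB3* fell by 1.47 (adjusted p = 0.0496), both with at most 1.98 CPM in every library, and these calls were lost in 15 of 21 and 13 of 20 alternatives. Without high-dose replicate 2, 3 of 11 RGD ligands passed as higher and 2 as lower, these 4 and *TGFB1* (0.41, adjusted p = 0.00102). In that fit 18.7% of all genes passed in either direction.

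The activators and adaptors that link integrins to the cytoskeleton did not pass when all libraries were used. Of 28 activators and adaptors, 25 were tested, and 0 passed edgeR's or DESeq2's test at any dose. For the high dose, 4 had an unadjusted p under 0.05. Over all genes, 20.1% had such a p at the high dose and 5.77% passed edgeR's test. These shares also apply to the lists below in this paragraph. The smallest p at the high dose was that of *RSU1*, for a protein of the complex around integrin-linked kinase (0.19, SE 0.07, adjusted p = 0.137). When high-dose replicate 2 was left out, 3 of the 25 passed as higher, among them *FLNA* for filamin A (0.62) and *BCAR1* (0.2), and *TNS1* for tensin-1 as lower (-0.27). *FERMT1*, for the epithelial integrin activator kindlin-1, had a mean of 220.4 CPM, and *FERMT2*, for kindlin-2, of 0.0429 CPM. Of 10 genes for inhibitors and trafficking, 9 were tested and 0 passed with edgeR or DESeq2 (3 at an unadjusted p under 0.05), with *DAB2*, an endocytic adaptor of β subunits, at -0.46 (SE 0.15, adjusted p = 0.106). Of 8 genes for hemidesmosomes and tetraspanins, 8 were tested and 0 passed edgeR's test (1 at an unadjusted p under 0.05). That one, *CD82*, was at -0.32 (SE 0.09, adjusted p = 0.0746) and was called by DESeq2 (adjusted p = 0.0262). In the fit without high-dose replicate 2, *PLEC* for plectin (0.42) and *COL17A1* for a collagen of hemidesmosomes (0.34) passed as higher, and *CD63* (-0.28) and *CD82* (-0.27) as lower. Over all genes, 18.7% passed in either direction in that fit. Of 7 other matrix receptors, 1 passed (2 with DESeq2, which added *CD44*, and 2 without high-dose replicate 2, which added *DDR1* at 0.25). *SDC4*, for syndecan-4, a proteoglycan receptor of focal adhesions, was at 86.6, 79.7 and 80.5 CPM in vehicle and at 121, 131 and 115 CPM at the high dose, with no overlap. *SDC4* rose by 0.57 (SE 0.07, adjusted p = 0.000525), and this call held in 21 of 21 alternatives.

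**Figure D5:**
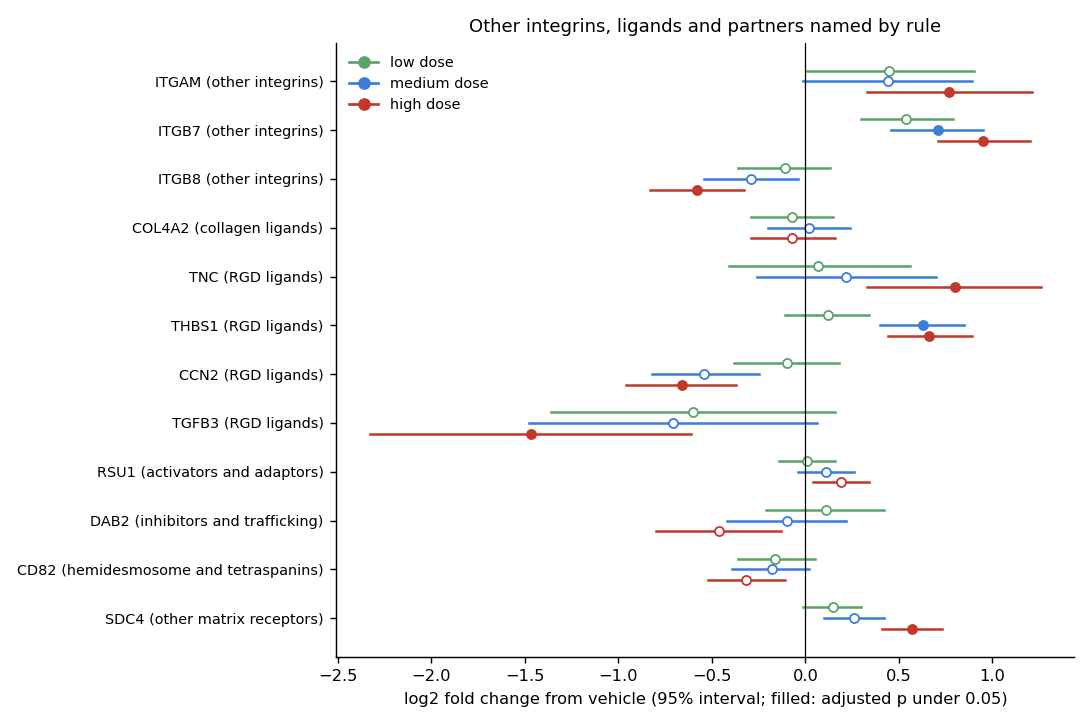
Log2 fold change from vehicle with its 95% interval at 3 doses (colours) for the integrins, ligands and partners outside the 10 subunits that the naming rule gave, leaving out the laminins. Filled points have an adjusted p under 0.05. At the high dose, *ITGB7*, *ITGAM*, *TNC*, *THBS1* and *SDC4* lie to the right of 0, and *ITGB8*, *CCN2* and *TGFB3* to the left.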

How the data were processed

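RNA from HT29 cells was sequenced as 100 bp paired-end reads from a strand-keeping mRNA library. By the submitters' processing notes, the authors used FastQC 0.11.9, Trim Galore 0.6.5, STAR 2.7.3a and RSEM 1.3.3, and the paper gives other versions of Trim Galore and STAR. Per gene, the authors deposited RSEM's expected counts with no normalization, and these were rounded to whole numbers. The treatment note of the libraries names another herb, and groups follow the titles, which name ACD. Of the gene IDs with a count, 98.1% were in GENCODE 44, which gave symbols, coordinates and canonical transcripts.

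All 4 groups were fitted together across all genes in edgeR 4.0.16 under R 4.3.3 (quasi-likelihood F-test, filterByExpr, TMM, robust), and p-values were adjusted over the genes tested. The study's own rule adds a fold change over 1.5. The fit was tested on simulated data. The 22 alternatives included DESeq2 1.42.0, other scalings and filters, a replicate block and each library left out. The offset for transcript length was added after seeing the data. CPM used TMM library sizes. The members and lists were chosen with earlier results of these data known. Named were all members, genes overlapping them or their pseudogenes, every list gene that passed at any dose or else the smallest p at the high dose, and the 5 genes most like *ITGA1*, except that some list results are not reported here. *FERMT1*, *FERMT2*, *ITGA4*, *ITGB2*, *ITGAE*, *PTPRC*, *LAMB2*, *LAMB3*, *LAMC1*, *CD44*, *TGFB1*, *FLNA*, *BCAR1*, *TNS1*, *PLEC*, *COL17A1*, *CD63* and *DDR1* were named after their values were seen. Sequences came from RefSeq.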

Additional observations from a re-analysis of the deposited data

Results flagged for a closer look

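*ITGA1* lay above the vehicle mean in all 3 low-dose libraries and below it in all 3 high-dose libraries, and its log2 fold changes at these doses differed by -0.89. This difference was not tested, because the gene was chosen for its high-dose level.

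*THBS1*, *SDC4* and *CCN2* had different effects at the high and low doses in the test of the difference by edgeR, with the same vehicle libraries behind both. High minus low was 0.54 on the log2 scale for *THBS1* (adjusted p = 0.0117), 0.42 for *SDC4* (adjusted p = 0.0056) and -0.56 for *CCN2* (adjusted p = 0.0457).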

How the results depend on the processing

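*ITGA1* kept its direction at each dose in all 21 alternatives that gave it a value, at -0.78 to -0.59 for the high dose, -0.20 to -0.04 for the medium dose and 0.11 to 0.27 for the low dose. The number of other subunits past the test at the high dose went from 0 to 1 with DESeq2 on all libraries and ranged from 0 to 3 when 1 library was left out. Leaving out 1 library gave 0 to 1 at the low dose and 0 to 1 in the dose trend, where the one was *ITGB4* without high-dose replicate 2 (adjusted p = 0.033). The counts for the medium dose and for differences between doses were 0 in every alternative run. The log2 fold changes at the high dose that turned their sign were small. When 1 library was left out they ranged from -0.15 to 0.23 for *ITGA2*, from -0.04 to 0.21 for *ITGA3*, from -0.05 to 0.16 for *ITGA6*, from -0.00 to 0.16 for *ITGAV* and from -0.15 to 0.19 for *ITGB4*. *ITGA2* was at 0.02 with the length offset, and at the low dose it ranged from -0.01 to 0.22.

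The 8 list genes past the test at the high dose became 4 with DESeq2 and 2 with edgeR on vehicle and 1 dose, 5 with the replicate block and 15 with the length offset, and ranged from 3 (without vehicle replicate 2) to 25 (without high-dose replicate 2) when 1 library was left out. Over all genes, the 887 calls at the high dose became 2934 without high-dose replicate 2, 433 without vehicle replicate 2, and 525 with DESeq2 and 181 with edgeR on vehicle and 1 dose. The 155 calls at the medium dose ranged from 59 to 1077 and the 19 at the low dose from 10 to 318. The replicate block gave 629 calls at the high dose. Same-numbered libraries correlated between -0.495 and 0.372 over 18 pairs, and a library correlated best with its own number in 9 of 36 cases, so the numbers were not taken as pairs. The cause of these shifts was not tested. With 3 libraries a group, the 95% intervals of the 8 subunits at the high dose reached from -0.42 to 0.44. Without vehicle replicate 1, their lowest limit was -0.58.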
